A study of Mus musculus with 4 samples.

Results

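The ABC drug and conjugate efflux transporters are membrane pumps that use ATP to push drugs, toxins and conjugated metabolites out of cells. They were taken here by name as 8 genes, Abcc1, Abcc2, Abcc3, Abcc4, Abcc5, Abcb1a, Abcb1b and Abcg2, out of 35275 gene identifiers in the deposited table, and all 8 were found. RNA had been sequenced from lung tumours of Balb/c mice, with 2 libraries from Nrf2 -/- knockout (KO) mice and 2 from Nrf2 +/+ wild-type (WT) mice. All mice had been given the carcinogen vinyl carbamate at 16 mg/kg, as 2 or 4 doses, and tumours were taken 40 to 44 weeks after the start. Each sample pooled 3 to 4 tumours, and no label ties a number of doses, weeks or tumours to a single sample. Neither do the labels give which part of the Nrf2 gene was disrupted, and the gene is missing from the host tissue of the knockout tumours as well as from their tumour cells.

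Cells dispose of many foreign compounds by coupling them to glutathione, glucuronic acid or sulfate, and the charged products then need a pump to leave the cell. The ABCC pumps carry such conjugates, whereas P-glycoprotein, made from Abcb1a and Abcb1b in rodents, carries a wide range of mostly unconjugated drugs. The breast cancer resistance protein ABCG2 carries many drugs and also sulfate conjugates. NRF2 is a transcription factor that switches on detoxification genes, and Abcc2, Abcc3 and Abcc4 are known in mouse liver as pumps that NRF2 activators induce. The comparison of KO with WT tumours asks how expression of these pumps differed in established tumours that lacked NRF2.

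From the steps between low values, KO 1 and 2 held 17975646 and 16892588 reads in all, against 21659572 and 21220307 reads in WT 1 and 2. Nfe2l2, which encodes NRF2, averaged 3.31 ± 0.496 FPKM (fragments per kilobase of gene, scaled to a fixed library total) in KO tumours and 92.1 ± 5.95 FPKM in WT tumours (SD, n = 2 each). Markers of alveolar type 2 cells, the surfactant-making cells of the lung, were abundant, their 8 genes summing to 105000 to 120100 FPKM in KO libraries and 108400 to 109000 FPKM in WT libraries. Most of each sum came from Sftpc, at 75160 to 90470 FPKM over the 4 libraries. Of the 8 markers, 3 were below in both KO libraries and 1 was above, against 25.4% and 22.7% of all tested genes. Markers of several other cell types separated the genotypes. All 6 tested T cell, 5 tested neutrophil and 5 tested erythroid markers were higher in both KO libraries than in both WT libraries. So were 4 of 5 tested club cell markers and 2 of 3 tested B cell markers, against 22.7% of all tested genes. The neutrophil marker Ly6g, which was not tested, went the other way, at 0 FPKM in both KO libraries and at 0.07 and 0.15 FPKM in WT 1 and 2. The part of these cell types in the pump levels was not tested. In bulk tissue, fewer cells of a type cannot be told apart from less RNA per cell.

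Levels differed among the pumps by more than 2 orders of magnitude on the FPKM scale, which is per gene length. Abcc5 was highest at a mean of 33.5 FPKM over the 4 libraries and Abcc3 was next at 30.8 FPKM, and their ranges over the libraries overlapped. Abcg2 (mean 9.66 FPKM) overlapped with Abcb1a (5.27 FPKM), and Abcb1a with Abcc4 (4.79 FPKM). Abcc1 at 2.89 FPKM, Abcb1b at 0.464 FPKM and Abcc2 at 0.117 FPKM each lay clear of their neighbours in this order. Abcc2 and Abcb1b were below 1 FPKM in every library. They were therefore outside the fit across genes, which kept genes at 1 FPKM or more in at least 2 libraries.

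**Figure D1:**
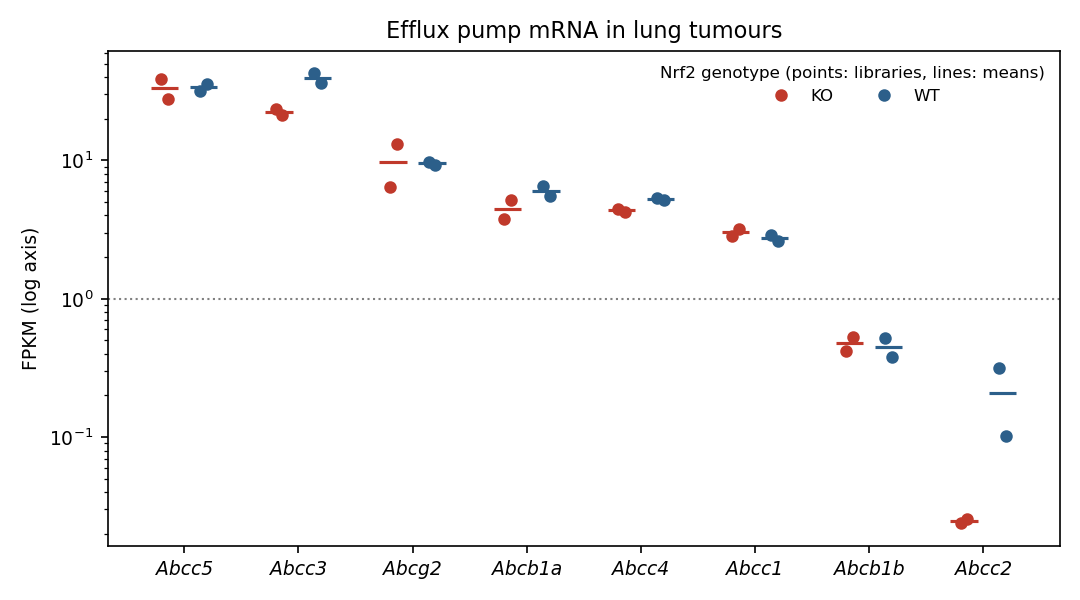
FPKM (log axis) of the 8 pumps in order of mean level, with a point for each library and a line at each genotype's mean, KO (red) left of WT (blue); the dotted line marks 1 FPKM. The KO points lie below the WT points for Abcc3, Abcb1a, Abcc4 and Abcc2, and overlap with them for the other pumps.

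In KO tumours Abcc3 mRNA averaged 0.568 of its WT level, the largest difference among the 6 tested pumps, and Abcc2 mRNA, which was not tested, was near the detection limit. Abcb1a and Abcc4 were lower in both KO libraries by smaller amounts, and Abcc1, Abcc5, Abcb1b and Abcg2 overlapped between KO and WT. Of the 6 pumps tested, 0 were called at a limma adjusted p under 0.05, where 0.114% of all 13147 tested genes were called (0.038% lower and 0.0761% higher). Abcc3 alone had a limma unadjusted p under 0.05, on the lower side, as had 7.01% of all tested genes. Limma-voom on reads recovered from the values also called 0 of the 6. In 3 of the 6, Abcc3, Abcb1a and Abcc4, both KO libraries lay below both WT libraries, as they did for 25.4% of tested genes, and in 0 of the 6 both lay above, against 22.7%. The median log2 fold change (KO minus WT, on log2(FPKM + 1)) was -0.13 over the 6 pumps and -0.004 over all tested genes. That median was -0.35 without KO 2, -0.21 without KO 1 and -0.06 with a pseudocount of 10. With the filter at 5 FPKM, which dropped Abcc1, it was -0.22 over 5 pumps.

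**Figure D2:**
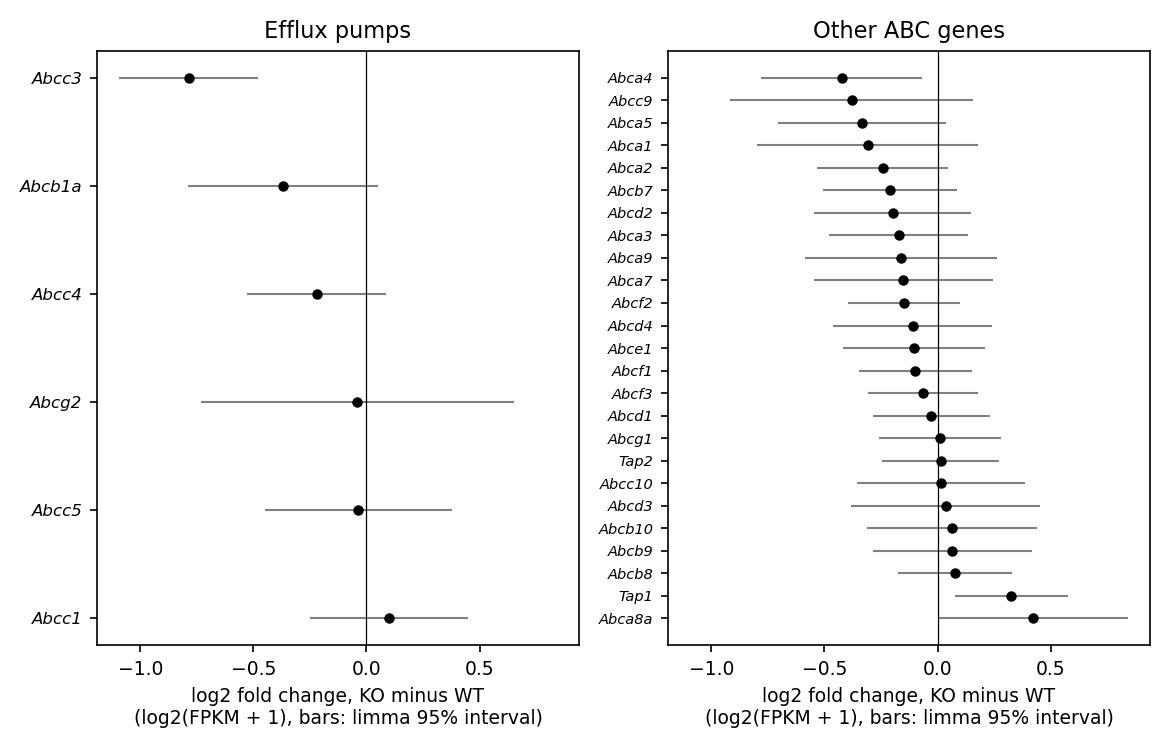
Log2 fold change, KO minus WT on log2(FPKM + 1), with limma's 95% interval, for the 6 tested pumps (left) and 25 other tested ABC genes (right). Abcc3, at -0.79, has the only pump interval that does not reach 0.

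Abcc3, also called MRP3, exports glucuronides and other organic anions across the basolateral membrane of epithelia. It lies on chromosome 11 (94343295 to 94392997, minus strand, mm10). It stood at 23.5 and 21.2 FPKM in KO 1 and 2, against 42.7 and 36.0 FPKM in WT 1 and 2. Both KO libraries were low and both WT libraries high, with no overlap, and the mean was 43.2% lower in KO tumours (22.3 ± 1.58 FPKM, against 39.3 ± 4.72 FPKM in WT tumours; SD, n = 2 each). The log2 fold change was -0.79 ± 0.13 (SE), with a 95% interval from -1.09 to -0.48. Its limma adjusted p of 0.11 missed the threshold of 0.05, and ranged from 0.0607 without KO 1 to 0.329 with no filter on low values over 12 alternatives. Those alternatives leave out a pairing of KO 1 with WT 2 and KO 2 with WT 1. For that pairing no value of Abcc3 is given here. By log2 fold change Abcc3 ranked 99 from the bottom among the 13147 tested genes. The recovered reads were at least 981 and 834 in the KO libraries and 2151 and 1778 in the WT libraries, and the ratio of summed reads per total, 0.568, has an exact 95% counting interval of 0.537 to 0.601. That interval covers counting error only, whereas limma's takes in the spread between the 4 libraries.

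Abcc2, also called MRP2, is the pump for conjugates on the apical membrane and is best known from the bile canaliculi of the liver. It lies on chromosome 19 (43782192 to 43840740, plus strand). It was barely detected, at 0.0239 and 0.0254 FPKM in KO 1 and 2 and at 0.317 and 0.101 FPKM in WT 1 and 2. The KO libraries were both below the WT libraries, and WT 1 was well above WT 2. The smallest whole read counts that fitted these values were 1 and 1 reads in the KO libraries, against 16 and 5 reads in the WT libraries. From these reads the ratio of KO to WT was 0.117, with an exact 95% counting interval of 0.0133 to 0.479. The ratio was 0.243 without WT 1, which held most of the reads. With no filter on low values the log2 fold change of Abcc2 was -0.23 ± 0.10 (SE; limma adjusted p = 0.464), a scale on which changes at such levels are compressed. Of 5 hepatocyte markers, Alb, which encodes albumin, had the highest level, at 3.62 and 3.01 FPKM in KO 1 and 2, against 6.22 and 5.88 FPKM in WT 1 and 2 (log2 fold change -0.71). The other hepatocyte markers failed the filter at 1 FPKM, and Apoc3 was at 0 in all 4 libraries. Cyp2e1 and Ttr went the other way from Alb, higher in both KO libraries, though at 0.152 FPKM or less throughout. Apoa1 overlapped between the genotypes. The part of such RNA in the level of Abcc2 was not tested.

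Abcc4, also called MRP4, exports cyclic nucleotides, prostaglandins and conjugated steroids. It lies on chromosome 14 (118482692 to 118706219, minus strand). Its values were 4.43 and 4.27 FPKM in KO 1 and 2, against 5.31 and 5.16 FPKM in WT 1 and 2. The groups did not overlap and the libraries within each were close together, at 4.35 ± 0.112 FPKM in KO tumours and 5.24 ± 0.106 FPKM in WT tumours (SD, n = 2 each). The log2 fold change of Abcc4 was -0.22 ± 0.13 (SE; 95% interval -0.53 to 0.09; limma adjusted p = 0.454). From at least 447 and 405 reads in the KO libraries and 646 and 615 in the WT libraries, the ratio of KO to WT was 0.831 (exact 95% counting interval 0.761 to 0.907).

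The remaining ABCC pumps overlapped between the genotypes. Abcc1, also called MRP1, exports glutathione conjugates and leukotriene C4 (chromosome 16, 14361558 to 14475737, plus strand). It was at 2.85 and 3.21 FPKM in KO 1 and 2 and at 2.88 and 2.64 FPKM in WT 1 and 2, and its log2 fold change was 0.10 (95% interval -0.25 to 0.45; limma adjusted p = 0.786). Abcc5, also called MRP5, which transports cyclic nucleotides and nucleotide analogues, lies on chromosome 16 as well (20331303 to 20426394, minus strand). It was at 38.7 and 27.9 FPKM in KO 1 and 2 and at 32.0 and 35.6 FPKM in WT 1 and 2, so that the KO libraries held both its highest and its lowest value. Its log2 fold change was -0.04 (95% interval -0.45 to 0.38; limma adjusted p = 0.941), and it was 0.19 without KO 2 and 0.04 without WT 2. Changes in either direction lie within both intervals, so neither gene is shown to be equal in KO and WT tumours.

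Abcc3 and Abcc5 together made up 77.6% and 65.1% of the summed pump FPKM in KO 1 and 2, and 74.7% and 75.6% in WT 1 and 2. The ratio of Abcc3 to Abcc5 within a library, which no scaling between libraries can alter, was 0.605 and 0.761 in KO 1 and 2, against 1.335 and 1.012 in WT 1 and 2, and was thus close to 1 in WT 2. Against Abcc1 the ratio of Abcc3 was 8.24 and 6.61 in KO libraries and 14.8 and 13.7 in WT libraries. The 8 pumps summed to 80.2 and 75.4 FPKM in KO 1 and 2, against 99.99 and 94.7 FPKM in WT 1 and 2. Of the difference between the means, 86.9% came from Abcc3. Without it the sums were 56.7 and 54.2 FPKM in the KO libraries and 57.3 and 58.7 FPKM in the WT libraries. No test was run on these sums and ratios.

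**Figure D3:**
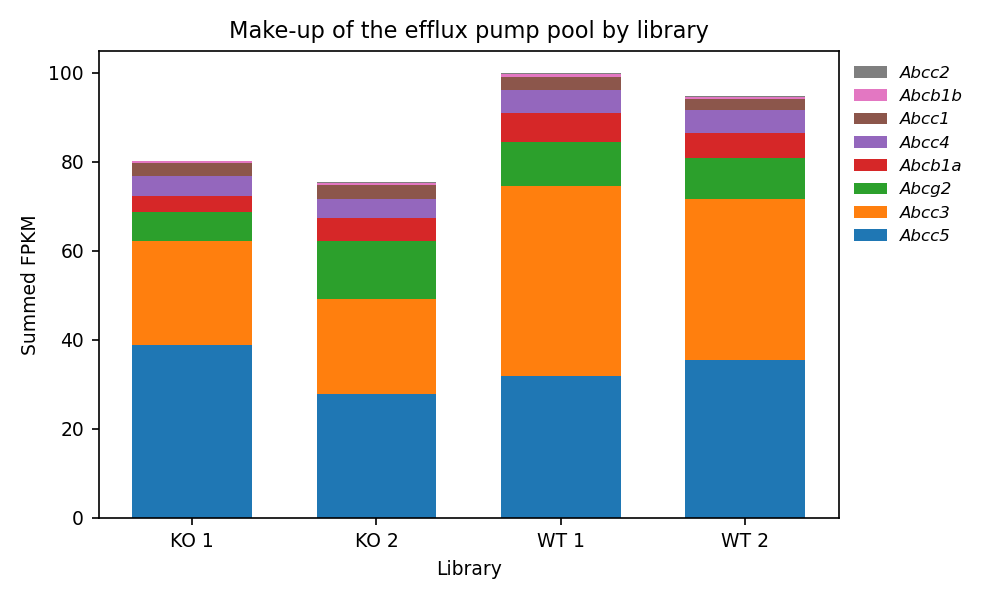
Summed FPKM of the 8 pumps in each library, stacked by gene, KO libraries left of WT libraries. The Abcc3 block spans 23.5 and 21.2 FPKM in KO 1 and 2, against 42.7 and 36.0 FPKM in WT 1 and 2, while the other pumps together sum to 56.7 and 54.2 FPKM in KO 1 and 2, against 57.3 and 58.7 FPKM in WT 1 and 2.

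Abcb1a and Abcb1b encode the rodent forms of P-glycoprotein, the multidrug resistance pump, and lie side by side on chromosome 5 (8660077 to 8748575 and 8798147 to 8866315, both on the plus strand). Their coding sequences were 88.2% identical over 3819 aligned bases, and 20.3% of all 50-base windows of either occurred in the other. How the authors assigned reads that match both genes is not given in the sources used here, so the split between them is uncertain. The first pair of stretches shows why, since it lies within the longest identical run, of 338 bases, and its capitals mark the codons of the signature motif of the ATP-binding domain. The second pair is the least similar stretch of 60 bases, with capitals at the 25 bases that differ. Sequences are from GENCODE transcripts, and positions count from the first base of the start codon.
Abcb1a, coding bases 1555 to 1617: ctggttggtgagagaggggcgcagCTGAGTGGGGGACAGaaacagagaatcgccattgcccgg
Abcb1b, coding bases 1564 to 1626: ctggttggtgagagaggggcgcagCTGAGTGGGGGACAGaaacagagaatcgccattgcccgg
Abcb1a, coding bases 1913 to 1972: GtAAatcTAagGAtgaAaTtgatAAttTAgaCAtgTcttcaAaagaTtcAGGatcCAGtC
Abcb1b, coding bases 1922 to 1981: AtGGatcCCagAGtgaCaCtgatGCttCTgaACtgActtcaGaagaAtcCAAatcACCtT

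As the reads were assigned, Abcb1a had the higher level of the pair. It was at 3.796 and 5.177 FPKM in KO 1 and 2, against 6.57 and 5.53 FPKM in WT 1 and 2. Both KO libraries were below both WT libraries, KO 2 by little. The log2 fold change of Abcb1a was -0.37 ± 0.17 (SE; 95% interval -0.79 to 0.05; limma adjusted p = 0.381), and it was -0.55 without KO 2 and -0.19 without KO 1. The ratio of its summed reads per total was 0.738 (exact 95% counting interval 0.641 to 0.848). Abcb1b was at 0.423 and 0.531 FPKM in KO 1 and 2 and at 0.521 and 0.380 FPKM in WT 1 and 2, with full overlap. From at least 33 and 39 reads in the KO libraries and 49 and 35 in the WT libraries, its ratio of KO to WT was 1.05 (exact 95% counting interval 0.759 to 1.46). Abcb1a exceeded Abcb1b 8.98 and 9.74 times in KO 1 and 2, and 12.6 and 14.6 times in WT 1 and 2.

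Abcg2, the breast cancer resistance protein, works as a dimer and exports sulfate conjugates, porphyrins and many drugs (chromosome 6, 58584523 to 58695676, plus strand). It was at 6.46 and 13.1 FPKM in KO 1 and 2, against 9.75 and 9.33 FPKM in WT 1 and 2. The KO libraries lay on either side of the WT libraries, and their SD of 4.68 FPKM compares with 0.294 FPKM in WT tumours. Its log2 fold change was -0.04 (95% interval -0.73 to 0.65; limma adjusted p = 0.965), and it was 0.42 without KO 1 and -0.50 without KO 2. The fit did not settle a direction for Abcg2.

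P-glycoprotein and ABCG2 are known from capillary endothelium, so the endothelial markers are set beside them. The 8 endothelial markers summed to 166 and 241 FPKM in KO 1 and 2, against 179 and 105 FPKM in WT 1 and 2. Abcg2 and these markers were both highest in KO 2, but the markers were lowest in WT 2 and Abcg2 in KO 1. Abcb1a was highest in WT 1, where the markers held the second place. The part of endothelial content in these levels was not tested.

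**Figure D4:**
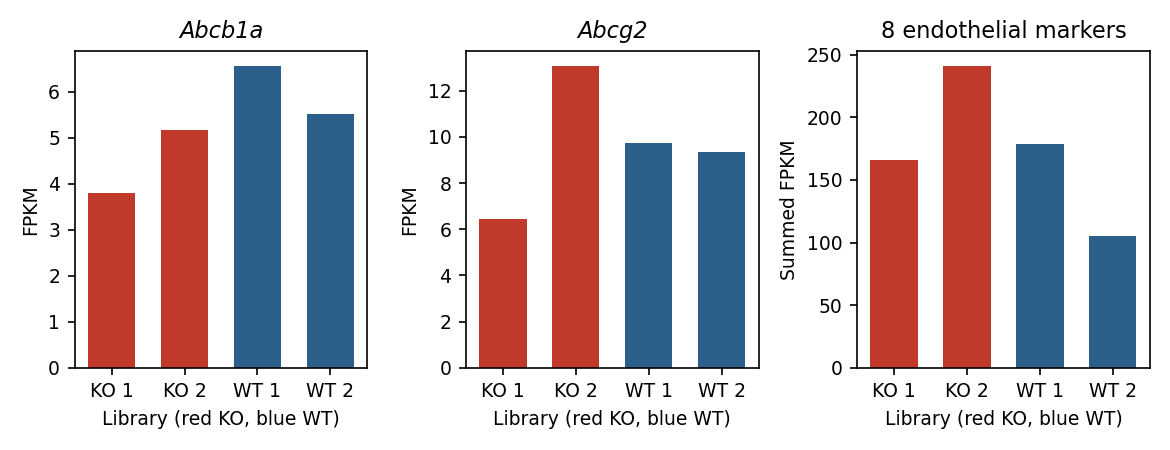
FPKM of Abcb1a (left) and Abcg2 (middle) and the summed FPKM of 8 endothelial markers (right) in each library, KO libraries in red left of WT libraries in blue. Abcg2 ranges from 6.46 FPKM in KO 1 to 13.1 FPKM in KO 2, and the markers reach 241 FPKM in KO 2 and 105 FPKM in WT 2.

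Among the other 45 ABC genes, 25 were tested and 0 were called by limma. At a limma unadjusted p under 0.05, 2 were higher and 1 was lower, against 8.36% and 7.01% of all tested genes. Both KO libraries lay below both WT libraries for 10 of the 25 and above them for 3, against 25.4% and 22.7% of all tested genes, and the median log2 fold change was -0.11. The lowest was Abca4, a retinoid transporter of the eye, at 2.37 and 2.45 FPKM in KO 1 and 2, against 3.29 and 3.88 FPKM in WT 1 and 2 (log2 fold change -0.42 ± 0.15, SE; limma adjusted p = 0.27). Abca8a was at 1.87 and 2.09 FPKM in KO 1 and 2, against 1.44 and 1.03 FPKM in WT 1 and 2 (log2 fold change 0.42; limma adjusted p = 0.323). Abcc9, a subunit of ATP-sensitive potassium channels, had a log2 fold change of -0.38 and Abca5 one of -0.33 (limma adjusted p = 0.461 and 0.369). Abcc3 was thus further from 0 than any of the 25, although the difference from them was not tested. Abca3, the lipid pump of alveolar type 2 cells and the closest profile to Abcc4 after Abcf2, was at 378 and 359 FPKM in KO 1 and 2, against 433 and 398 FPKM in WT 1 and 2 (log2 fold change -0.17; limma adjusted p = 0.56).

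Profiles over the 4 libraries were compared within the 31 tested ABC genes by the root-mean-square distance between log2(FPKM + 1) values, each centred on its mean. Abcc4 lay 0.04 from both Abcf2 and Abca3, and Abcc1 0.06 from Abcb8. Abcb1a was closest to Abca5 and Abca1, at 0.09 from each, and Abcc5 to Abca7 and Abcd4, at 0.08 from each. The closest to Abcg2 were Abca1 and Abcd3 at 0.18 and 0.21. For Abcc3 the nearest were Abcc9 and Abca4 at 0.24 each. The distances are not scaled for the size of a change, so the larger change of Abcc3 adds to its distance from the other genes. With 4 libraries these distances only describe.

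The enzymes that make the conjugates were taken as a list of 55 glutathione, glucuronide and sulfate conjugating genes. Of these, 54 were in the table with a symbol, 12 were at 0 in all libraries and 24 were tested. Gsta3 and Gstm1, glutathione S-transferases, were called, both lower (0.038% of all tested genes), and 0 were called higher. Both KO libraries lay below both WT libraries for 9 of the 24 and above for 2, against 25.4% and 22.7% of all tested genes. At a limma unadjusted p under 0.05, 4 were lower and 2 were higher, against 7.01% and 8.36% of all tested genes. Gstm1 averaged 57.2 ± 6.89 FPKM in KO tumours and 223.9 ± 33.2 FPKM in WT tumours (SD, n = 2 each; log2 fold change -1.95, limma adjusted p = 0.024). Gsta3 averaged 2.86 ± 0.732 FPKM in KO tumours and 21.3 ± 1.00 FPKM in WT tumours (log2 fold change -2.54, limma adjusted p = 0.0108). Gsto1 and Gstm2 had log2 fold changes of -0.76 and -0.60 (limma adjusted p = 0.139 and 0.134), close in size to that of Abcc3. The 2 enzymes above in both KO libraries were Sult1a1 and Gstp1. Sult1a1 was at 8.56 and 12.2 FPKM in KO 1 and 2, against 5.99 and 7.01 FPKM in WT 1 and 2 (log2 fold change 0.59, limma adjusted p = 0.247). Gstp1 was at 101.6 and 161.7 FPKM in KO 1 and 2, against 87.95 and 88.9 FPKM in WT 1 and 2 (log2 fold change 0.53, limma adjusted p = 0.32). Gstm1 and Gstm2 are similar in sequence, so reads that match both could have been given to either.

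NRF2 acts through the antioxidant response element, and the core TGACNNNGC was searched on both strands from 250 bases before to 50 after each gene start listed by RefSeq (GRCm38.p6). The table held sequences for 6 of the 8 pumps with 9 starts, and none for Abcc1 and Abcc3. The core occurred at 4 of the 9 starts, and at 12.4% of all 32851 starts. By gene, it occurred in 3 of the 6 pumps, Abcb1a, Abcc2 and Abcc4, and in 14.0% of 27025 genes. The matches of Abcc2 and Abcc4 are printed, with the core in capitals. Any link between the core and the KO levels was not tested. Positions are given as bases before the start, and capitals that begin with GC hold the core on the opposite strand.
Abcc2, 98 bases before the start (chr19:43782200-43782229, plus strand): ctcactgggaTGACATAGCattcatctagc
Abcc4, 25 bases before the first start (chr14:118706225-118706254, minus strand): gccccgagagGCGGGGTCAgggcgggccgg
Abcc4, 23 bases before an inner start (chr14:118676935-118676964, minus strand): aataatctcgTGACTCTGCcgtggtggata
The match in Abcb1a lies 27 bases after a RefSeq start that is 93.0 kilobases upstream of the GENCODE gene start. The RefSeq start of Abcc2 lies 116 bases inside the GENCODE gene, so that by GENCODE the match is within the gene. The inner start of Abcc4 lies 29.3 kilobases inside the gene. A match describes letters only, and whether NRF2 bound there was not measured.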

How the data were processed

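The authors deposited FPKM per gene for 4 libraries. The build mm10 and, with no role stated, TopHat2 and DESeq2 appear per the submitters' processing notes. Which counter, annotation and strand setting the authors used is not given in the sources used here. Of 35275 identifiers, 34490 matched a symbol in GENCODE M21 (GRCm38, the same assembly), whose coordinates count from 1. Whole reads were recovered for 21600 of 21601 genes above 0, within 0.0002 reads plus 2e-08 per read, at an annotated length for 5488 and otherwise at the smallest length that fitted; for all 8 pumps this was the smallest length, so their reads are lower limits. Intervals from reads cover counting error only, and because the pump reads are lower limits, these intervals can be too wide.

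The test was limma 3.58.1 (R 4.3.3) with an intensity trend, KO minus WT, on log2(FPKM + 1) of 13147 genes at 1 FPKM or more in at least 2 libraries, with Benjamini-Hochberg adjustment and a threshold of 0.05. Fold changes on this scale understate changes of low genes. The fit was also run on simulated data, with planted changes larger than that of any tested pump. That run cannot show whether changes of the pumps' size would be found. Mice are separate per the design text, and p-values reflect the spread of these 4 pooled samples. Named were all 8 pumps, Nfe2l2, called genes of each list and the 2 closest ABC profiles. From each list came up to 4 genes of largest change among those at a mean of 1 FPKM or more without group overlap. Abca3, Nr1i2, Nr1i3, Sult1a1, Gstp1 and the single marker genes were added after their values were seen. The members and lists were chosen with earlier results of these data known. Coding sequences were aligned with Biopython 1.88.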

Additional observations from a re-analysis of the deposited data

How the results depend on the processing

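Over all genes, the count called was 15 in the fit as described, 1 with no filter on low values, 8 with limma-voom on recovered reads, and 10 to 221 when 1 library was left out (221 without KO 1, 49 without KO 2). Across 12 other settings (normalization, variance trend, filters, pseudocounts, replicate block, each library left out, limma-voom), 0 pumps and 0 other ABC genes were called, Nfe2l2 stayed called, and Abcc3 kept a negative log2 fold change of -0.91 to -0.61. The pump median of -0.13 was -0.056 with a pseudocount of 10 and -0.35 to -0.15 when 1 library was left out. With the filter at 5 FPKM it was -0.22 over 5 pumps, since Abcc1 dropped out. The median of the other ABC genes, -0.11 over 25 genes, was -0.053 with a pseudocount of 10 and -0.14 to -0.07 when 1 library was left out. With no filter it was 0.003, over 43 genes that include those below 1 FPKM. When 1 library was left out, Abcc5 ran from -0.27 to 0.19 (0.04 without WT 2, 0.19 without KO 2) and Abcg2 from -0.50 to 0.42 (0.42 without KO 1); the cause was not tested. With the replicate block 69 genes and 0 pumps were called. Equal numbers did not deviate together (r = -0.306 across genes). The crossed pairing, of KO 1 with WT 2 and KO 2 with WT 1, was chosen after seeing the data. It called 848 of 13147 tested genes (520 higher and 328 lower). Of the 6 tested pumps it called 1, on the lower side, and which pump this was is not given here. Abcc2 rests on few reads and Abcb1b on 33 to 49 per library at the smallest length that fits.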

Other observations

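Carriers that bring drugs and organic anions into cells, a list of 33, had 11 tested members and 0 called by limma, with 2 lower and 0 higher at an unadjusted p under 0.05, against 7.01% and 8.36% of all tested genes. Both KO libraries lay below both WT libraries for 6 of the 11 and above for 2, against 25.4% and 22.7% of all tested genes. Slco2a1, the prostaglandin carrier, was at 63.6 and 56.6 FPKM in KO 1 and 2, against 89.0 and 77.6 FPKM in WT 1 and 2 (log2 fold change -0.46 ± 0.12, SE; limma adjusted p = 0.198). Slc22a4, the ergothioneine carrier, was at 0.999 and 1.06 FPKM in KO 1 and 2, against 1.86 and 2.78 FPKM in WT 1 and 2 (log2 fold change -0.69; limma adjusted p = 0.21). Slc29a1 and Slc22a18 had log2 fold changes of 0.31 and -0.25 (limma adjusted p = 0.396 and 0.391).

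Of 16 receptors and factors known to control transporter genes, 12 were tested and 0 were called by limma, with 2 lower and 0 higher at an unadjusted p under 0.05, against 7.01% and 8.36% of all tested genes. Pparg, a fatty acid receptor, was at 6.72 and 6.56 FPKM in KO 1 and 2, against 10.4 and 10.5 FPKM in WT 1 and 2 (log2 fold change -0.58 ± 0.11, SE; limma adjusted p = 0.14). Ahr, the aryl hydrocarbon receptor, was at 19.7 and 18.8 FPKM in KO 1 and 2, against 25.5 and 24.6 FPKM in WT 1 and 2 (log2 fold change -0.36; limma adjusted p = 0.219). Nr1i2 and Nr1i3, the xenobiotic receptors PXR and CAR of the liver, were low, Nr1i2 at 0.131 and 0.186 FPKM in KO 1 and 2 and at 0.109 and 0.0554 FPKM in WT 1 and 2, and Nr1i3 at 0.405 and 0.232 FPKM in KO 1 and 2 and at 0.311 and 0.370 FPKM in WT 1 and 2. Ppara and Nr1h3 had log2 fold changes of -0.29 and 0.26 (limma adjusted p = 0.409 and 0.345).

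Among 7 membrane anchors, 6 were tested and 0 were called by limma, with 1 higher at an unadjusted p under 0.05, against 8.36% of all tested genes. That gene, Cav1, a caveolar protein abundant in endothelium, was at 92.0 and 137 FPKM in KO 1 and 2, against 86.3 and 43.2 FPKM in WT 1 and 2 (log2 fold change 0.87; limma adjusted p = 0.309), the same order of libraries as the endothelial markers except that KO 1 and WT 1 changed places. Slc9a3r1 and Slc9a3r2 had log2 fold changes of -0.11 and 0.10. Among non-ABC exporters and their partners, 3 of 5 were tested and 0 called, with Rala at 0.10, and 0 had an unadjusted p under 0.05.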
